A study of Mus musculus with 26 samples.

Results

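C-LTMRs and Aδ-LTMRs are low-threshold mechanoreceptors whose nerve endings wrap hair follicles as lanceolate palisades, the first with unmyelinated axons and the second with thinly myelinated axons. The comparison set the 3 C-LTMR libraries against the 3 Aδ-LTMR libraries, chosen by their labels as 6 of 26 RNA-seq libraries from 8 dorsal root ganglion subtypes of the mouse. C-LTMRs came from ThCreER;R26tdtomato(Ai14) mice given tamoxifen at 2 mg per day on postnatal days 13 and 14, or 14 and 15. Aδ-LTMRs came from TrkBCreER;R26tdtomato(Ai14) mice given the same dose on embryonic days 12 and 13. Both lines carry the tdTomato reporter at R26, and all animals were adult, from postnatal day 23 onwards. Recombination marks cells by their driver gene at the time of tamoxifen, so labelling allele and tamoxifen age cannot be told apart from subtype. Ganglia of all axial levels from several mice were pooled and the fluorescent neurons were sorted, so each library is a pool. The p-values rest on the spread between pools of the same subtype, estimated jointly over all 26 libraries, with 3 pools in each population compared.

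For a second comparison that shares no library with this pair, nociceptors were set against Aβ-LTMRs. The nociceptors were 3 nonpeptidergic libraries (MrgD-EGFP) and 3 peptidergic libraries (CGRP-GFP), with no tamoxifen. The Aβ-LTMRs were 5 RA-LTMR libraries (Npy2r-GFP, no tamoxifen), 3 SA1-LTMR libraries (TrkCCreER;Retf(GFP), tamoxifen at 3 mg per day at E12.5) and 3 Field-LTMR libraries (the same alleles, 2 mg per day on postnatal days 13 and 14, or 14 and 15). The remaining 3 libraries, proprioceptors from PVIRESCre;R26tdtomato(Ai14) mice, entered the model only to estimate the spread between replicates.

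Sensory neurons of the ganglion release glutamate onto the dorsal horn, and fibre types differ in axon calibre, myelin and the channels that set their firing. C-LTMRs respond to slow stroking of hairy skin, express tyrosine hydroxylase and the vesicular glutamate transporter VGLUT3, and conduct slowly. Aδ-LTMRs, the D-hair afferents, respond to small deflections of hairs, depend on BDNF signalling through TrkB in mice and conduct faster through nodes of Ranvier.

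The regions upstream of the 2 genes that drove labelling, Th and Ntrk2, and of the 2 vesicular glutamate transporter genes that separated the populations, Slc17a8 and Slc17a7, are printed because the results return to these 4 genes. Each window holds the 250 bases before the annotated start, on the gene's own strand from 5′ to 3′, from RefSeq on GRCm38.p6. Capitals mark a match, on either strand, to 1 of 5 motifs: the cAMP response element TGACGTCA, the RUNX core TGTGGT, the MAF recognition core TGCTGAC, the AP-1 site TGAGTCA and the TATA box TATAAA. None of the 5 motifs contains another.
Th, chr7:142899996-142900245, minus strand: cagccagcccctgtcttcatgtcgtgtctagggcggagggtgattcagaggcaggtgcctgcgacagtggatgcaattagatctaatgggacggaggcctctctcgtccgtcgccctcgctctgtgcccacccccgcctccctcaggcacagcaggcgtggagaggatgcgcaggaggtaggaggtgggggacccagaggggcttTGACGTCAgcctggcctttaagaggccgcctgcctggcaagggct
Ntrk2, chr13:58806319-58806568, plus strand: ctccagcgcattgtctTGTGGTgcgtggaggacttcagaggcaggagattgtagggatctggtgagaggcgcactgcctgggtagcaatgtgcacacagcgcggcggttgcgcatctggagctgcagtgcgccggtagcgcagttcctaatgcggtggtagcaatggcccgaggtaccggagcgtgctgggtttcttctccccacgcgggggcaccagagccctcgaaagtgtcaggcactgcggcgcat
Slc17a8, chr10:89621250-89621499, minus strand: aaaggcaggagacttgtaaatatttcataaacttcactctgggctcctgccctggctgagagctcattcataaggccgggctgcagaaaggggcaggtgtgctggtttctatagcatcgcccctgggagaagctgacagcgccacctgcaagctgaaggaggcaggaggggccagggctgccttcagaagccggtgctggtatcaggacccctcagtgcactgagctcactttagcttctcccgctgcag
Slc17a7, chr7:45163671-45163920, plus strand: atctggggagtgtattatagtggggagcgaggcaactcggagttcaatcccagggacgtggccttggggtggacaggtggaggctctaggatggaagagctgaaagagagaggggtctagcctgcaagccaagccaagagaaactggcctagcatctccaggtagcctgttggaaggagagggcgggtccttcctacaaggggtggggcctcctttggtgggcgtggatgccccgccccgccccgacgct

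The Th window held a cAMP response element at -45 to -38 from the start, a motif found in the same window of 1.55% of 32851 promoters in the table and of 2.38% of 15072 promoters of genes tested. It was present in 1.98% of 1063 promoters of genes called higher in C-LTMRs and in 1.62% of 1849 promoters of genes called lower. The Ntrk2 window held a RUNX core at -234 to -229, found in 14% of all promoters, in 10.7% of those of genes tested, in 11.5% of those called higher and in 9.84% of those called lower. No match to the 5 motifs lies in the printed windows of Slc17a8, for which the table lists 2 promoters and the first is shown, or of Slc17a7. GC content was 64.4% for Th, 62.8% for Ntrk2, 57.2% for Slc17a8 and 61.2% for Slc17a7. In the GENCODE annotation, 19 bases of the Th window and 4 bases of the Slc17a8 window fall in exons of the same gene, and the Ntrk2 and Slc17a7 windows overlap no annotated gene. The whole Th window lies within the GENCODE span of Th given below, which begins further upstream than the RefSeq start used here.

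The labels were checked first against the driver genes. Th (chromosome 7, 142892752 to 142931128, GRCm38) had 424, 437 and 332 CPM in C-LTMRs, against 11.9, 6.91 and 26.1 CPM in Aδ-LTMRs, where CPM are read counts per library size scaled by TMM. Every C-LTMR library was above every Aδ-LTMR library, with a log2 fold change of 4.72 ± 0.48 (SE) and an adjusted p of 5.5e-08. Ntrk2, which encodes TrkB (chromosome 13, 58806569 to 59133970), had 139, 158 and 152 CPM in C-LTMRs, against 500.5, 643 and 424 CPM in Aδ-LTMRs. It was lower in C-LTMRs in all 3 libraries, with a log2 fold change of -1.80 ± 0.21 and an adjusted p of 6.1e-07, while TrkB mRNA was present in both populations. Because Th and Ntrk2 drove the labelling by which the cells were sorted, their differences were favoured by the design and are no independent result. Of 13 C-LTMR markers 11 were higher and 0 lower in C-LTMRs (median log2 fold change 4.67), and of 11 Aδ-LTMR markers 0 were higher and 9 lower (median -1.80; 1 higher and 8 lower on RPKM). These markers were chosen with earlier results of these data known, so their counts are descriptive and give no independent check of the labels.

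Total counts were 34731005, 48555120 and 66309214 in the C-LTMR libraries and 32788086, 29482263 and 53150135 in the Aδ-LTMR libraries. Aδ-LTMR libraries 1 and 2 stood apart from the other 4: their reads reached 51 bases rather than 50 and mapped at 61.4% and 74.5%, against 92.5 to 94.4% in the others. Correlations of log2 CPM were 0.989 to 0.990 among C-LTMR libraries, 0.951 to 0.976 among Aδ-LTMR libraries and 0.921 to 0.930 between the populations. All 3 pairs of libraries within each population differed by more than counting noise (chi-square per degree of freedom of at least 8.56). Mitochondrial ribosomal RNA took 16.03 to 18.01% of counts in C-LTMRs and 18.9 to 26.0% in Aδ-LTMRs.

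Of 17411 genes tested, 1139 (6.54%) were called higher and 2115 (12.1%) lower in C-LTMRs than in Aδ-LTMRs (18.7% together), at an adjusted p under 0.05 (edgeR quasi-likelihood test) and a log2 fold change of at least 1. Changes of at least 16-fold were found for 150 of the higher and 298 of the lower genes. The libraries of the 2 populations did not overlap for 1135 of the higher and 1979 of the lower genes; over all genes tested 47.1% did not overlap. The median log2 fold change of all genes tested was -0.071. The balance between directions differed between the count test and limma on the authors' RPKM values, which changes the measure, the test and the genes kept together: limma called 2119 higher and 1424 lower of 15016 genes, 59.8% higher against 35.0% with counts, and its median lay 0.280 above that of the counts. Another scaling of the counts alone (relative log expression factors) gave 1140 higher and 2105 lower, 35.1% higher. With Aδ-LTMR library 3 as the only Aδ-LTMR library, which leaves 1 read-length class, 1140 genes were called higher and 1905 lower. In sorted pools, fewer cells of a type and less RNA per cell cannot be told apart.

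**Figure D1:**
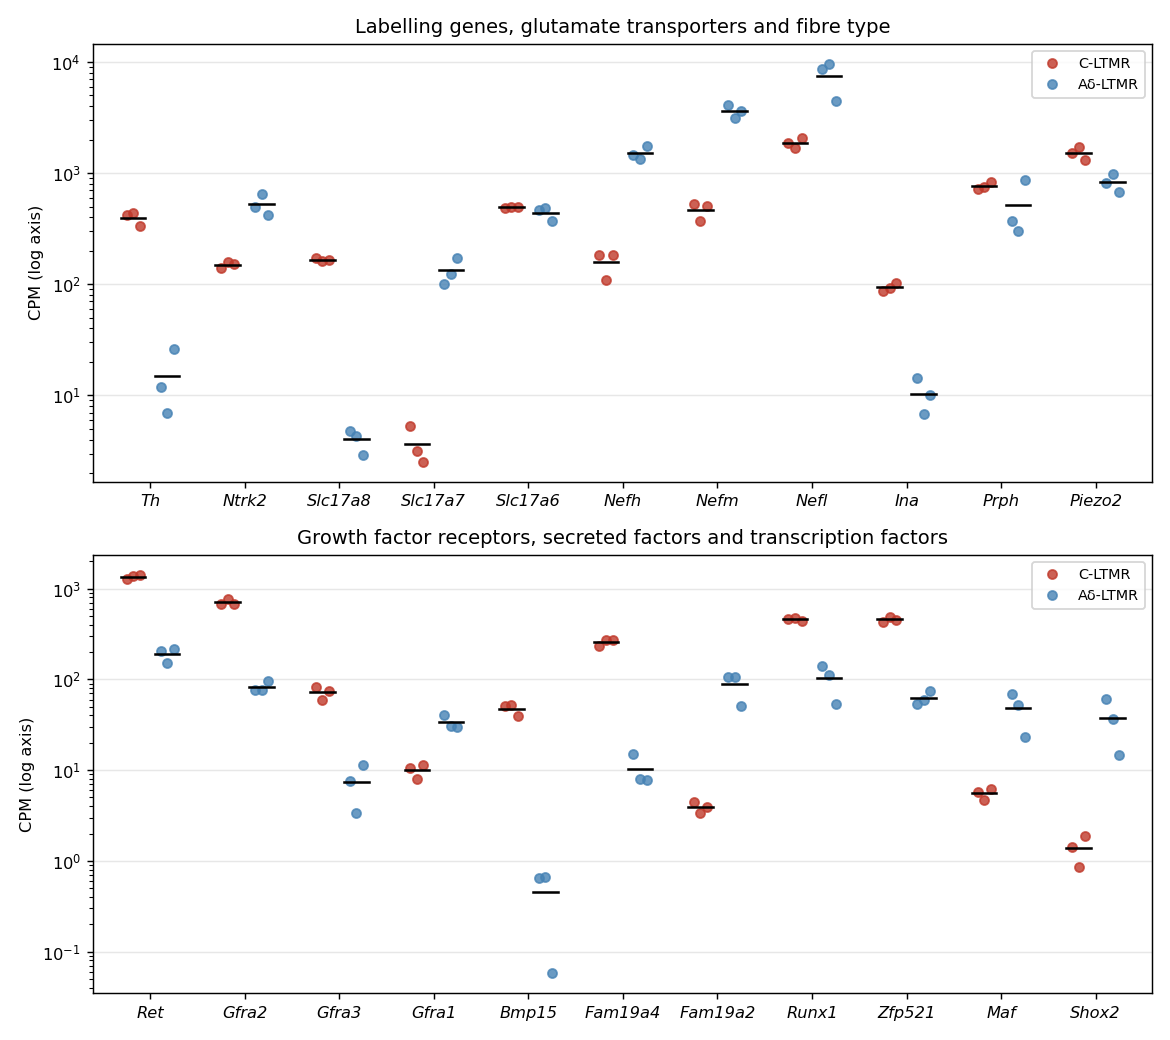
Level of 22 genes in each library, in CPM on a log axis; points are the 3 C-LTMR libraries (red, left) and the 3 Aδ-LTMR libraries (blue, right) and bars are means. Th, Slc17a8, Ret, Gfra2, Bmp15 and Fam19a4 are separated upwards in C-LTMRs, and Slc17a7, Nefh, Fam19a2, Maf and Shox2 downwards, while Slc17a6 and Prph overlap.

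Single genes were ranked by their change among called genes with at least 5 CPM in the higher population, no overlap between libraries and more than 3 counts in the lower population. Bmp15, a TGF-beta family ligand known from the oocyte, had 50.3, 51.6 and 39.1 CPM in C-LTMRs, against 0.652, 0.669 and 0.0582 CPM in Aδ-LTMRs. Its log2 fold change was 6.76 ± 0.76 (adjusted p = 2.7e-07), and the lowest C-LTMR library stood far above the highest Aδ-LTMR library. The other genes with the largest rises were C1ql4, a secreted synaptic organiser of the C1q family, Cacna1i, AW551984, Slc51a, a subunit of an organic solute transporter, Chrna4, Slc17a8 and Ppl, a plakin; their log2 fold changes ran from 5.30 for Ppl to 6.23 for C1ql4. The largest falls were Akr1c14, Slfn5, Flt1, Cxcl12, Slco1a4, Sall4, Cd93 and Slc39a8, from -6.37 for Slc39a8 to -7.71 for Akr1c14. Of these, Flt1, the VEGF receptor, Slco1a4, a transporter of the blood-brain barrier, and Cd93 are known as endothelial genes. Reads of Akr1c14, Slfn5 and Slco1a4 may be shared with close paralogs, which makes their values uncertain. Beside these falls, 10 of 11 endothelial markers were lower in C-LTMRs (median -5.36), and their part in the result was not tested.

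The vesicular glutamate transporters load glutamate into synaptic vesicles, and the populations differed in which member was abundant. Slc17a8, which encodes VGLUT3 (chromosome 10, 89574020 to 89621253), had 171, 162 and 166 CPM in C-LTMRs, against 4.801, 4.35 and 2.91 CPM in Aδ-LTMRs. This was a log2 fold change of 5.38 ± 0.75 (adjusted p = 8.4e-06). Slc17a7, which encodes VGLUT1 (chromosome 7, 45163949 to 45176142), had 5.29, 3.18 and 2.53 CPM in C-LTMRs, against 101, 125 and 174 CPM in Aδ-LTMRs. It lay on the other side by nearly the same amount, with a log2 fold change of -5.20 ± 0.34 (adjusted p = 5.7e-11). Slc17a6, which encodes VGLUT2, had 487, 499 and 499 CPM in C-LTMRs, against 462, 489.9 and 374 CPM in Aδ-LTMRs; the libraries overlapped and the difference of 0.16 ± 0.18 did not pass the test (adjusted p = 0.54). Per length, on the authors' mean RPKM levels, Slc17a6 was the most abundant in C-LTMRs at 75.1, above Slc17a8 at 25.1 and Slc17a7 at 1.64. In Aδ-LTMRs the order was Slc17a7 at 64.7, Slc17a6 at 39.0 and Slc17a8 at 0.355. The mean RPKM of Slc17a6 was thus higher in C-LTMRs than in Aδ-LTMRs, while its CPM were close. Relative to CPM, the RPKM of Slc17a6 and Slc17a8 were lower in Aδ-LTMRs than in C-LTMRs, but those of Slc17a7 were not. A change of scale alone would shift all genes alike, so the RPKM order in Aδ-LTMRs is uncertain. By CPM, which are not scaled by length, Slc17a6 was the highest of these genes in both populations.

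The wider list of vesicle loading and release genes had 11 higher and 9 lower of 39 tested, a median log2 fold change of 0.32 against -0.071 over all genes (0.73 on RPKM). Counts of this list and of the lists below stand beside 6.54% higher and 12.1% lower over all genes tested. Synaptotagmins, the calcium sensors of release, split: Syt9 averaged 159 ± 3.34 CPM in C-LTMRs and 32.1 ± 4.61 CPM in Aδ-LTMRs, Syt5 52.7 ± 3.47 CPM in C-LTMRs and 10.02 ± 1.28 CPM in Aδ-LTMRs and Syt7 383 ± 19.95 CPM in C-LTMRs and 82.6 ± 32.5 CPM in Aδ-LTMRs, while Syt2 averaged 35.2 ± 6.75 CPM in C-LTMRs and 201 ± 27.5 CPM in Aδ-LTMRs (SD, n = 3 libraries in each population here and below). All 3 Syt9, Syt5 and Syt7 comparisons were higher in C-LTMRs, with log2 fold changes of 2.31, 2.39 and 2.21, and Syt2 was lower at -2.51. The SV2 vesicle proteins split likewise. Sv2a had 183, 189 and 144 CPM in C-LTMRs, against 31.5, 29.5 and 41.9 CPM in Aδ-LTMRs, and Sv2b had 96.5, 63.7 and 95.5 CPM in C-LTMRs, against 587, 536 and 550.0 CPM in Aδ-LTMRs. Their log2 fold changes were 2.32 ± 0.39 (adjusted p = 7.4e-05) for Sv2a and -2.71 ± 0.22 (adjusted p = 1.4e-09) for Sv2b. Vamp1, a synaptobrevin, was lower in C-LTMRs (-1.62), and Rims1, an active zone scaffold, was higher (1.26). Cadps2, which primes dense-core vesicles, had 16.2, 16.9 and 10.4 CPM in C-LTMRs, against 446, 601 and 553 CPM in Aδ-LTMRs, a log2 fold change of -5.20 ± 0.35 (adjusted p = 1.0e-10).

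**Figure D2:**
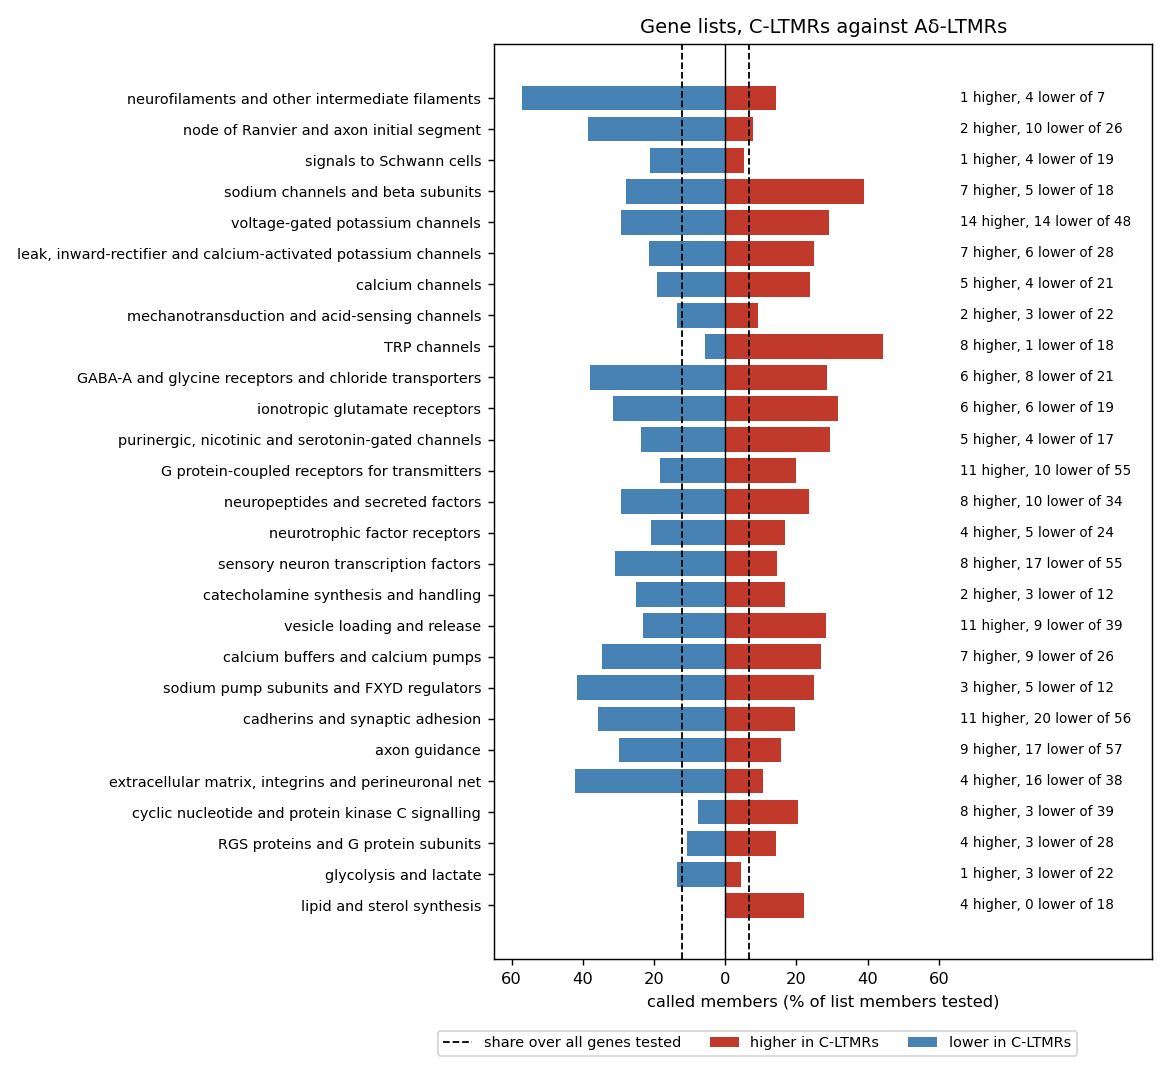
Share of the tested members of each gene list shown that were called higher (red, right) or lower (blue, left) in C-LTMRs, in percent, with the counts at the right; dashed lines give the shares over all genes tested, 6.54% higher and 12.1% lower. The bars for TRP channels and for the sodium channel list, which also holds Nalcn and Fgf11 to Fgf14, reach furthest to the right. Those for neurofilaments, extracellular matrix and sodium pump subunits reach furthest to the left.

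Most of the called genes of axon calibre and of the node of Ranvier were lower in C-LTMRs. The neurofilaments fill the axon and set its calibre, and 4 of 7 tested intermediate filaments were lower and 1 was higher. Nefh had 182, 109 and 184 CPM in C-LTMRs, against 1466, 1327 and 1760.2 CPM in Aδ-LTMRs. Its log2 fold change was -3.26 ± 0.24 (adjusted p = 2.9e-10); Nefm changed by -2.96 ± 0.24 and Nefl by -2.01 ± 0.23, both called. Ina, which encodes α-internexin, went the other way, with 87.8, 91.7 and 103 CPM in C-LTMRs, against 14.2, 6.76 and 10.1 CPM in Aδ-LTMRs, a log2 fold change of 3.18 ± 0.42 (adjusted p = 3.1e-06). Prph, which encodes peripherin, typical of small neurons, had 718, 745 and 830.3 CPM in C-LTMRs, against 369, 302 and 866 CPM in Aδ-LTMRs. Aδ-LTMR library 3 was the highest of the 6, so the populations overlapped, and the difference of 0.58 ± 0.29 did not pass the test (adjusted p = 0.14); it was 1.19 and called without that library, and -0.16 with it as the only Aδ-LTMR library.

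Of 26 genes of the node and the axon initial segment 10 were lower and 2 higher (median -0.64). Cntnap1, the paranodal Caspr, averaged 37.7 ± 3.51 CPM in C-LTMRs and 142 ± 22.2 CPM in Aδ-LTMRs, and its partner Cntn1 averaged 247 ± 3.95 CPM in C-LTMRs and 947 ± 277 CPM in Aδ-LTMRs, log2 fold changes of -1.92 and -1.94. Nfasc, neurofascin, had 98.6, 104 and 92.1 CPM in C-LTMRs, against 292, 288 and 252 CPM in Aδ-LTMRs and a log2 fold change of -1.496 ± 0.29. Scn8a, the NaV1.6 channel of mature nodes, had 149.6, 158 and 142 CPM in C-LTMRs, against 357, 389.8 and 331 CPM in Aδ-LTMRs, a log2 fold change of -1.26 ± 0.23 (adjusted p = 2.0e-04); on RPKM it was -0.89, under the fold threshold. The 2 members that were higher in C-LTMRs were Fgf14 and Ank3. Ank3, ankyrin G, had 1191, 1318 and 1086 CPM in C-LTMRs, against 409.6, 353 and 381 CPM in Aδ-LTMRs, so this scaffold of the initial segment differed in the opposite direction from the 10 lower members. The list of signals to Schwann cells, which also holds the Schwann cell genes Mag and Lgi4, had 1 higher and 4 lower of 19. Its median of -0.42 turned to 0.10 on RPKM, and its balance of directions also turned with Aδ-LTMR library 3 alone. Nrg1, the axonal signal for myelin thickness, had 106, 106 and 104 CPM in C-LTMRs, against 143, 122 and 177 CPM in Aδ-LTMRs; the difference of -0.48 ± 0.17 lay under the fold threshold (adjusted p = 0.035). Markers of myelinating Schwann cells had summed levels of 2570 to 2906 CPM in C-LTMRs and 1537 to 2211 CPM in Aδ-LTMRs, with 1 of 12 (Mbp) higher and 5 lower (2 higher and 3 lower of 11 on RPKM); their part in these values was not tested.

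The list of sodium channels and β subunits, which also holds Nalcn and Fgf11 to Fgf14, had 7 higher and 5 lower of 18 tested. Its median was 0.45, against 0.95 on RPKM and 1.52 with Aδ-LTMR library 3 alone. Fgf14 was among the higher members. The tetrodotoxin-resistant channels of small neurons were higher in C-LTMRs. Scn10a, NaV1.8, had 677, 683 and 600.2 CPM in C-LTMRs, against 152, 71.0 and 113 CPM in Aδ-LTMRs, a log2 fold change of 2.54 ± 0.52 (adjusted p = 6.1e-04). Scn11a, NaV1.9, had 536, 556 and 483 CPM in C-LTMRs, against 126, 82.3 and 103 CPM in Aδ-LTMRs, a log2 fold change of 2.34 ± 0.38 (adjusted p = 4.2e-05). Scn9a, NaV1.7, had 1203, 1237 and 1144 CPM in C-LTMRs, against 862, 779 and 355 CPM in Aδ-LTMRs; every C-LTMR library was higher, and the difference of 0.85 ± 0.31 lay under the fold threshold (adjusted p = 0.046). Without Aδ-LTMR library 1 it was 1.11 and without library 2 it was 1.02, both called, as it was on RPKM at 1.64 and with Aδ-LTMR library 3 alone at 1.77. Among β subunits, Scn3b averaged 411 ± 35.3 CPM in C-LTMRs and 29.9 ± 2.41 CPM in Aδ-LTMRs and Scn4b, which supports resurgent current in fast-firing neurons, averaged 62.0 ± 4.89 CPM in C-LTMRs and 309 ± 83.7 CPM in Aδ-LTMRs. Scn3b was higher by 3.78 ± 0.27 (adjusted p = 1.6e-10), and Scn4b fell by 2.32 ± 0.27 (adjusted p = 5.7e-07), both on the log2 scale.

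Voltage-gated potassium channels divided evenly, with 14 higher and 14 lower of 48 tested; the median of -0.04 turned to 0.23 on RPKM. Among the higher members were subunits of the A-type channel. Kcnd3, KV4.3, had 1234, 1359 and 1311 CPM in C-LTMRs, against 125, 126 and 99.0 CPM in Aδ-LTMRs, a log2 fold change of 3.48 ± 0.31 (adjusted p = 8.4e-09). Its auxiliary subunits moved the same way, with log2 fold changes of 3.52 ± 0.36 for Kcnip2, 2.72 ± 0.28 for Kcnip4, 2.32 ± 0.24 for Dpp6 and 1.79 ± 0.29 for Dpp10. Kcnh6, an ERG channel, averaged 123 ± 3.55 CPM in C-LTMRs and 10.2 ± 2.27 CPM in Aδ-LTMRs. Lower in C-LTMRs were the high-threshold KV3 channels Kcnc1 (-2.39) and Kcnc4 (-2.97), which allow rapid firing, while Kcnc2 was higher (1.48). Kcna1, the juxtaparanodal KV1.1, had 187, 161 and 158 CPM in C-LTMRs, against 898, 940.4 and 707 CPM in Aδ-LTMRs and a log2 fold change of -2.33 ± 0.23 (adjusted p = 3.6e-08). Kcnq3, a KV7 subunit of the M current, had 18.05, 17.8 and 13.0 CPM in C-LTMRs, against 509, 805 and 327 CPM in Aδ-LTMRs, a log2 fold change of -5.07 ± 0.55 (adjusted p = 1.8e-07). Among leak, inward-rectifier and calcium-activated channels 7 were higher and 6 lower of 28 (4 and 4 with Aδ-LTMR library 3 alone), and Kcnk1, TWIK1, was lower in C-LTMRs with 31.7 ± 1.43 CPM in C-LTMRs and 275 ± 24.7 CPM in Aδ-LTMRs. The calcium-activated channel Kcnn3, SK3, averaged 10.7 ± 1.78 CPM in C-LTMRs and 0.481 ± 0.313 CPM in Aδ-LTMRs. Kcnk18, TRESK, averaged 5.19 ± 0.732 CPM in C-LTMRs and 25.4 ± 7.70 CPM in Aδ-LTMRs and was lower in C-LTMRs (-2.29 ± 0.48, adjusted p = 6.9e-04).

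The low-threshold calcium channel genes Cacna1i and Cacna1h differed in opposite directions, and both were present in C-LTMRs. Cacna1i, CaV3.3, had 94.9, 102 and 80.3 CPM in C-LTMRs, against 1.57, 1.56 and 1.07 CPM in Aδ-LTMRs, with a log2 fold change of 6.05 ± 0.81 (adjusted p = 4.3e-06). Cacna1h, CaV3.2, the T-type channel known from D-hair afferents, had 111, 96.9 and 104 CPM in C-LTMRs, against 169.5, 256 and 268 CPM in Aδ-LTMRs. It was lower in C-LTMRs by a smaller amount, -1.16 ± 0.30 (adjusted p = 0.005). Among high-threshold channels higher in C-LTMRs, Cacna1e, CaV2.3, averaged 61.8 ± 5.86 CPM in C-LTMRs and 5.41 ± 3.60 CPM in Aδ-LTMRs, Cacna1b, CaV2.2, averaged 375 ± 13.1 CPM in C-LTMRs and 158 ± 46.1 CPM in Aδ-LTMRs, and the list of calcium channels had 5 higher and 4 lower of 21. Hcn2, a pacemaker channel, had 9.37, 10.8 and 10.98 CPM in C-LTMRs, against 14.5, 21.9 and 25.9 CPM in Aδ-LTMRs, a difference of -0.997 ± 0.23 (adjusted p = 0.0018) that fell just short of the fold threshold. It was called without C-LTMR library 2 (-1.02), C-LTMR library 3 (-1.04) or Aδ-LTMR library 1 (-1.17), and on RPKM (-1.31).

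**Figure D3:**
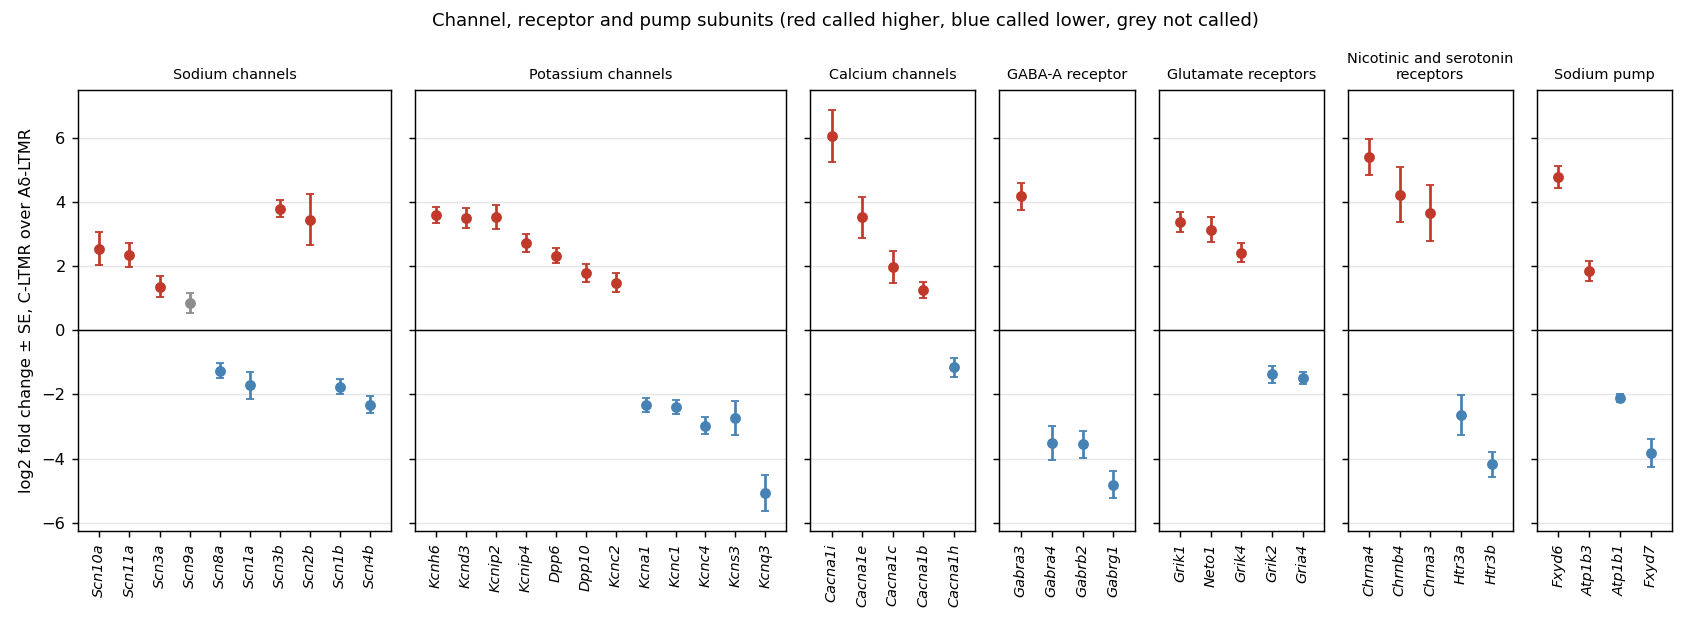
Log2 fold change with its SE for subunits of 7 channel, receptor and pump families, C-LTMR over Aδ-LTMR; red points were called higher, blue points lower and grey points were not called. Each family holds members on both sides of 0, from Cacna1i at 6.05 to Kcnq3 at -5.07.

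Channels of touch transduction were measured in both populations. Piezo2, the principal touch channel, had 1509.7, 1708 and 1315 CPM in C-LTMRs, against 821, 984 and 671 CPM in Aδ-LTMRs. All 3 C-LTMR libraries were higher, and the difference of 0.87 ± 0.23 (adjusted p = 0.0061) lay under the fold threshold; it was called at 1.06 without Aδ-LTMR library 2 and at 1.19 with Aδ-LTMR library 3 alone. Of 22 mechanotransduction and acid-sensing channels 2 were higher (Asic1 and Tmc3) and 3 lower, a share near that over all genes (3 and 2 with Aδ-LTMR library 3 alone, and 2 and 1 of 16 on RPKM). Asic1 averaged 49.3 ± 5.78 CPM in C-LTMRs and 13.4 ± 5.77 CPM in Aδ-LTMRs and Asic3 averaged 4.95 ± 1.54 CPM in C-LTMRs and 35.3 ± 12.46 CPM in Aδ-LTMRs, with log2 fold changes of 1.87 ± 0.28 and -2.84 ± 0.36. Ano1, a calcium-activated chloride channel, averaged 0.608 ± 0.217 CPM in C-LTMRs and 9.38 ± 2.37 CPM in Aδ-LTMRs.

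TRP channels had 8 higher and 1 lower of 18 (median 0.91; 5 higher and 1 lower with Aδ-LTMR library 3 alone). Trpv1, the capsaicin receptor, had 91.4, 79.8 and 97.6 CPM in C-LTMRs, against 12.4, 3.27 and 8.59 CPM in Aδ-LTMRs, a log2 fold change of 3.46 ± 0.65 (adjusted p = 2.8e-04). Trpa1, the irritant receptor, had 108, 84.3 and 74.7 CPM in C-LTMRs, against 17.1, 5.39 and 8.53 CPM in Aδ-LTMRs. Trpm8, the cold receptor, had 82.8, 86.0 and 141 CPM in C-LTMRs, against 11.1, 7.36 and 15.2 CPM in Aδ-LTMRs, with a log2 fold change of 3.20 ± 0.66 (adjusted p = 6.7e-04); its difference of 2.78 was not called with Aδ-LTMR library 3 alone. Trpc4 averaged 21.2 ± 0.654 CPM in C-LTMRs and 1.198 ± 0.431 CPM in Aδ-LTMRs, and Trpm2 was the member that was lower, with 8.59 ± 2.31 CPM in C-LTMRs and 19.9 ± 2.42 CPM in Aδ-LTMRs. Markers of peptidergic nociceptors stood beside these values: 6 of 11 were higher and 1 lower in C-LTMRs (2 higher and 1 lower with Aδ-LTMR library 3 alone), at summed levels of 955 to 1274 CPM in C-LTMRs and 189 to 402 CPM in Aδ-LTMRs. Calca, which encodes CGRP, had 662, 467 and 618 CPM in C-LTMRs, against 175, 45.1 and 176 CPM in Aδ-LTMRs (called, but not at 1.74 with Aδ-LTMR library 3 alone), and Tac1, which encodes substance P, had 267, 209 and 241 CPM in C-LTMRs, against 47.8, 16.2 and 65.5 CPM in Aδ-LTMRs. Of 11 markers of nonpeptidergic nociceptors 2 were higher and 0 lower (1 higher on RPKM and with Aδ-LTMR library 3 alone). The part of nociceptors among the sorted cells in these results was not tested.

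The list of GABA and glycine receptors with chloride transporters and channels had 6 higher and 8 lower of 21 tested genes. Ano1, given above, belongs to this list. The GABA-A subunits differed in both directions, and the list's median of -0.28 turned to 0.03 on RPKM. Gabra3, the α3 subunit, had 106, 104 and 86.1 CPM in C-LTMRs, against 7.23, 4.31 and 4.89 CPM in Aδ-LTMRs, a log2 fold change of 4.17 ± 0.43 (adjusted p = 6.4e-08). Gabrb2 and Gabrg1 ran the other way. Gabrg1, the γ1 subunit, had 3.47, 1.48 and 2.42 CPM in C-LTMRs, against 89.9, 78.2 and 36.9 CPM in Aδ-LTMRs, a log2 fold change of -4.81 ± 0.43 (adjusted p = 8.4e-09), and Gabrb2, the β2 subunit, averaged 5.87 ± 0.852 CPM in C-LTMRs and 69.0 ± 23.4 CPM in Aδ-LTMRs.

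Ionotropic glutamate receptors had 6 higher and 6 lower of 19 (6 higher and 1 lower of 17 on RPKM, where the median of -0.43 turned to 0.01; 4 and 2 with Aδ-LTMR library 3 alone). The kainate receptor genes split. Grik1 had 182, 191 and 203 CPM in C-LTMRs, against 26.8, 13.6 and 15.4 CPM in Aδ-LTMRs, a log2 fold change of 3.37 ± 0.32 (adjusted p = 1.6e-08), and Grik2 had 4.45, 3.72 and 5.20 CPM in C-LTMRs, against 15.5, 9.18 and 9.97 CPM in Aδ-LTMRs, a log2 fold change of -1.37 ± 0.26 (adjusted p = 3.1e-04) that was -0.64 and not called on RPKM. Neto1, an auxiliary subunit of kainate receptors, averaged 34.7 ± 4.37 CPM in C-LTMRs and 3.95 ± 2.20 CPM in Aδ-LTMRs. Among ATP, acetylcholine and serotonin gated channels, 5 were higher and 4 lower of 17 (3 and 5 with Aδ-LTMR library 3 alone). Chrna4, the α4 nicotinic subunit, had 61.1, 63.4 and 61.2 CPM in C-LTMRs, against 2.16, 0.483 and 1.69 CPM in Aδ-LTMRs, a log2 fold change of 5.40 ± 0.56 (adjusted p = 7.2e-08). Chrnb4 had 51.2, 31.9 and 36.8 CPM in C-LTMRs, against 3.38, 0.594 and 2.37 CPM in Aδ-LTMRs, again with no overlap. Both serotonin-gated subunits were lower in C-LTMRs. Htr3a had 23.6, 12.2 and 16.3 CPM in C-LTMRs, against 61.0, 88.2 and 173 CPM in Aδ-LTMRs, and Htr3b had 2.22, 1.70 and 1.62 CPM in C-LTMRs, against 27.4, 34.5 and 37.7 CPM in Aδ-LTMRs, with log2 fold changes of -2.64 ± 0.62 (adjusted p = 0.0025) and -4.17 ± 0.39 (adjusted p = 1.4e-08). P2rx3, the ATP receptor of nociceptors, was higher in C-LTMRs (82.7 ± 15.0 CPM in C-LTMRs and 17.1 ± 6.25 CPM in Aδ-LTMRs).

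Receptors coupled to G proteins had 11 higher and 10 lower of 55 tested (16 higher and 7 lower of 50 on RPKM, and 7 higher and 8 lower with Aδ-LTMR library 3 alone). The serotonin receptors Htr7 and Htr1d were lower in C-LTMRs: Htr7 had 1.77, 1.23 and 2.07 CPM in C-LTMRs, against 76.4, 69.7 and 26.2 CPM in Aδ-LTMRs, and Htr1d averaged 56.6 ± 5.92 CPM in C-LTMRs and 200.3 ± 31.3 CPM in Aδ-LTMRs. Grm4, a presynaptic metabotropic glutamate receptor, had 3.73, 3.66 and 2.65 CPM in C-LTMRs, against 51.2, 75.7 and 93.2 CPM in Aδ-LTMRs, a log2 fold change of -4.46 ± 0.31 (adjusted p = 1.6e-10). Adra1a, an α1 adrenergic receptor, averaged 0.146 ± 0.113 CPM in C-LTMRs and 10.7 ± 4.89 CPM in Aδ-LTMRs. Higher in C-LTMRs were Oprm1, the μ opioid receptor (50.3 ± 6.32 CPM in C-LTMRs and 8.09 ± 3.49 CPM in Aδ-LTMRs; not called with Aδ-LTMR library 3 alone), P2ry2 (13.3 ± 0.855 CPM in C-LTMRs and 2.15 ± 0.569 CPM in Aδ-LTMRs) and Ptger3, a prostaglandin E2 receptor (9.24 ± 0.518 CPM in C-LTMRs and 1.78 ± 0.395 CPM in Aδ-LTMRs). Downstream, Rgs8, which speeds the shut-off of G protein signals, had 384, 406 and 299.8 CPM in C-LTMRs, against 22.6, 10.9 and 6.21 CPM in Aδ-LTMRs, a log2 fold change of 4.78 ± 0.53 (adjusted p = 2.2e-07), in a list with 4 higher and 3 lower of 28 (7 and 3 of 27 on RPKM). Enzymes of cyclic nucleotides and protein kinase C had 8 higher and 3 lower of 39, among them Adcy5, an adenylyl cyclase, with 45.1 ± 2.70 CPM in C-LTMRs and 5.93 ± 1.76 CPM in Aδ-LTMRs.

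Secreted peptides had 8 higher and 10 lower of 34 tested (9 higher and 5 lower of 28 on RPKM, where the median of -1.07 turned to 0.31; 4 and 8 with Aδ-LTMR library 3 alone). The TAFA chemokine-like family split by member. Fam19a4, which encodes TAFA4, a C-LTMR peptide known to reduce pain in mice, had 235, 275 and 269 CPM in C-LTMRs, against 14.9, 8.06 and 7.70 CPM in Aδ-LTMRs, a log2 fold change of 4.67 ± 0.33 (adjusted p = 1.9e-10). Fam19a2 had 4.50, 3.41 and 3.92 CPM in C-LTMRs, against 106, 107 and 50.4 CPM in Aδ-LTMRs, a log2 fold change of -4.48 ± 0.41 (adjusted p = 9.2e-09), and Fam19a3 averaged 13.0 ± 1.23 CPM in C-LTMRs and 82.6 ± 17.2 CPM in Aδ-LTMRs (-2.67 ± 0.27). Bdnf, the ligand of TrkB, had 8.52, 6.995 and 9.79 CPM in C-LTMRs, against 46.1, 48.4 and 31.9 CPM in Aδ-LTMRs, and was lower in C-LTMRs by the test (-2.32 ± 0.26, adjusted p = 2.7e-07; -0.92 on log2(RPKM + 1), under the fold threshold). Cbln2, a secreted synaptic organiser, averaged 7.76 ± 1.75 CPM in C-LTMRs and 115 ± 23.7 CPM in Aδ-LTMRs.

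Receptors for neurotrophic factors had 4 higher and 5 lower of 24 (median 0.40). Ret and 2 of its co-receptors were higher in C-LTMRs. Ret, the shared signalling receptor, had 1284, 1374 and 1409 CPM in C-LTMRs, against 206, 153 and 217 CPM in Aδ-LTMRs, a log2 fold change of 2.82 ± 0.20 (adjusted p = 1.6e-10). Gfra2, the neurturin co-receptor, had 684, 761 and 682 CPM in C-LTMRs, against 75.6, 75.8 and 96.2 CPM in Aδ-LTMRs (3.10 ± 0.43, adjusted p = 6.3e-06), and Gfra3, the artemin co-receptor, averaged 71.7 ± 11.8 CPM in C-LTMRs and 7.44 ± 4.004 CPM in Aδ-LTMRs (3.26 ± 0.47). Gfra1, the GDNF co-receptor, was lower in C-LTMRs, with 10.6, 7.93 and 11.4 CPM in C-LTMRs, against 40.8, 30.6 and 29.9 CPM in Aδ-LTMRs (-1.76 ± 0.28, adjusted p = 3.0e-05). Ntrk3, the NT-3 receptor TrkC, had 82.2, 71.4 and 75.2 CPM in C-LTMRs, against 50.4, 38.6 and 37.0 CPM in Aδ-LTMRs; the difference of 0.86 ± 0.33 did not pass the test (adjusted p = 0.051) and was called at 1.05 without Aδ-LTMR library 1. Ngfr, the p75 receptor, had 507, 438 and 406 CPM in C-LTMRs, against 530.2, 504 and 779 CPM in Aδ-LTMRs, and the libraries overlapped.

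Transcription factors of sensory neurons had 8 higher and 17 lower of 55 tested, a balance that turned to 18 higher and 12 lower of 50 on RPKM and was 12 higher and 12 lower with Aδ-LTMR library 3 alone. Runx1, needed in mice for the development of C-LTMRs and many nociceptors, had 467, 478 and 437 CPM in C-LTMRs, against 142, 113 and 53.2 CPM in Aδ-LTMRs, a log2 fold change of 2.17 ± 0.47 (adjusted p = 0.0012). Zfp521, a zinc finger factor, had 433, 486 and 454 CPM in C-LTMRs, against 53.1, 58.5 and 75.3 CPM in Aδ-LTMRs (2.88 ± 0.32), and Prdm12, needed for nociceptor fate, had 143, 142 and 170.1 CPM in C-LTMRs, against 22.5, 10.2 and 12.8 CPM in Aδ-LTMRs (3.32 ± 0.46). Bhlha9 averaged 17.3 ± 1.42 CPM in C-LTMRs and 0.734 ± 0.198 CPM in Aδ-LTMRs. Maf, needed for touch receptor development in mice, had 5.80, 4.66 and 6.17 CPM in C-LTMRs, against 69.5, 51.9 and 23.1 CPM in Aδ-LTMRs, a log2 fold change of -3.12 ± 0.29 (adjusted p = 1.7e-08). Shox2, known in the mouse to act in TrkB touch neurons, had 1.43, 0.857 and 1.86 CPM in C-LTMRs, against 60.1, 36.9 and 14.5 CPM in Aδ-LTMRs, a log2 fold change of -4.73 ± 0.60 (adjusted p = 1.7e-06), with Aδ-LTMR library 3 the lowest of its group and still above all C-LTMR libraries. Esrrg averaged 4.46 ± 0.839 CPM in C-LTMRs and 69.3 ± 13.6 CPM in Aδ-LTMRs, Tbx3 36.9 ± 5.21 CPM in C-LTMRs and 233 ± 37.1 CPM in Aδ-LTMRs and Nfia 39.8 ± 4.51 CPM in C-LTMRs and 223 ± 92.3 CPM in Aδ-LTMRs. Pou4f1, the pan-sensory factor BRN3A, had 262, 335 and 276 CPM in C-LTMRs, against 168, 214 and 169 CPM in Aδ-LTMRs, a difference of 0.66 ± 0.20 (adjusted p = 0.014) under the fold threshold and called at 1.24 on RPKM.

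The genes of catecholamine synthesis and handling, Th included, had 2 higher and 3 lower of 12 tested (1 and 1 with Aδ-LTMR library 3 alone); the median of -0.24 turned to 0.41 on RPKM. Ddc, which makes dopamine from the product of tyrosine hydroxylase, had 0.318, 0.0390 and 0.0665 CPM in C-LTMRs, against 0.622, 0.223 and 0.349 CPM in Aδ-LTMRs, under 1 CPM in both populations, and its difference of -1.58 ± 0.73 did not pass the test (adjusted p = 0.11). DESeq2 called it at -1.63, and edgeR called it at -2.82 without C-LTMR library 1. Gch1, which makes the cofactor, had 1.38, 1.56 and 2.11 CPM in C-LTMRs, against 0.741, 0.520 and 1.18 CPM in Aδ-LTMRs, a difference of 1.03 ± 0.64 (adjusted p = 0.25) that was called at 1.21 on RPKM. Slc18a2, the vesicular monoamine transporter, had 11.6, 10.1 and 11.2 CPM in C-LTMRs, against 15.3, 19.6 and 12.9 CPM in Aδ-LTMRs, a difference of -0.54 ± 0.22 that did not pass the test (adjusted p = 0.069) and was 0.32 on RPKM.

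The list of calcium-binding proteins, calcium pumps and calcium exchangers had 7 higher and 9 lower of 26 tested. On RPKM it had 9 higher and 7 lower, and its median of -0.18 turned to 0.03. Calb1, calbindin, had 4.47, 2.59 and 2.79 CPM in C-LTMRs, against 123, 81.4 and 80.7 CPM in Aδ-LTMRs, a log2 fold change of -4.86 ± 0.64 (adjusted p = 3.8e-06). Vsnl1, a neuronal calcium sensor, had 37.4, 31.3 and 39.3 CPM in C-LTMRs, against 753, 1062 and 885 CPM in Aδ-LTMRs, a log2 fold change of -4.64 ± 0.35 (adjusted p = 4.9e-10), and S100b averaged 32.0 ± 9.84 CPM in C-LTMRs and 456 ± 37.3 CPM in Aδ-LTMRs. Hpca, hippocalcin, was higher in C-LTMRs (72.6 ± 7.45 CPM in C-LTMRs and 11.5 ± 0.920 CPM in Aδ-LTMRs). The sodium pump restores ion gradients after firing, and 3 of its 12 tested subunits and FXYD regulators were higher and 5 lower. Atp1b1 had 535, 482 and 545 CPM in C-LTMRs, against 2013, 2143 and 2550.0 CPM in Aδ-LTMRs, and Atp1b3 had 875, 918 and 928 CPM in C-LTMRs, against 370.3, 253 and 130.5 CPM in Aδ-LTMRs, with log2 fold changes of -2.10 ± 0.13 (adjusted p = 2.3e-11) and 1.85 ± 0.32 (adjusted p = 8.0e-05). The FXYD regulators split too. Fxyd6 had 162, 176 and 148 CPM in C-LTMRs, against 6.02, 4.35 and 7.48 CPM in Aδ-LTMRs (4.76 ± 0.34, adjusted p = 2.4e-10). Fxyd7 had 8.87, 5.01 and 5.84 CPM in C-LTMRs, against 42.3, 58.2 and 177 CPM in Aδ-LTMRs (-3.82 ± 0.44, adjusted p = 4.1e-07).

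Among cadherins and synaptic adhesion molecules 11 were higher and 20 lower of 56, a balance that turned to 16 higher and 11 lower of 53 on RPKM and was 5 higher and 16 lower with Aδ-LTMR library 3 alone. Cdh9, a classical cadherin, had 135, 132 and 149 CPM in C-LTMRs, against 6.37, 5.35 and 3.57 CPM in Aδ-LTMRs, a log2 fold change of 4.77 ± 0.49 (adjusted p = 6.4e-08). Ntng1, netrin G1, had 6.67, 3.12 and 3.24 CPM in C-LTMRs, against 218, 225 and 182 CPM in Aδ-LTMRs, a log2 fold change of -5.60 ± 0.58 (adjusted p = 9.7e-08), and its paralog Ntng2 averaged 4.77 ± 0.565 CPM in C-LTMRs and 44.5 ± 5.53 CPM in Aδ-LTMRs. The secreted LGI proteins Lgi2 and Lgi3 were lower in C-LTMRs, at -4.71 and -4.08. Guidance genes had 9 higher and 17 lower of 57. Slit1 averaged 312 ± 29.9 CPM in C-LTMRs and 102 ± 21.0 CPM in Aδ-LTMRs and Slit2 averaged 3.64 ± 0.175 CPM in C-LTMRs and 28.5 ± 7.66 CPM in Aδ-LTMRs, so these ligands stood on opposite sides (1.61 ± 0.29 and -2.97 ± 0.33), and the receptor Robo1 was lower (-2.17). The semaphorins Sema4d (2.14) and Sema3e (2.34) and the netrin receptor Unc5b (3.09) were higher, and the ephrin receptors Epha6 (-3.66) and Epha4 (-3.81; -0.76 and not called on log2(RPKM + 1)) were lower.

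Extracellular matrix, integrin and perineuronal net genes had 4 higher and 16 lower of 38. Hapln1 had 3.26, 0.935 and 3.34 CPM in C-LTMRs, against 50.3, 34.0 and 24.5 CPM in Aδ-LTMRs and Hapln4 had 4.16, 2.71 and 3.91 CPM in C-LTMRs, against 44.7, 48.2 and 62.0 CPM in Aδ-LTMRs; both encode link proteins that bind hyaluronan in perineuronal nets, and both log2 fold changes came to -3.85. Vcan, versican, went the other way (19.9 ± 0.491 CPM in C-LTMRs and 2.07 ± 1.41 CPM in Aδ-LTMRs). Colq, the collagen tail of acetylcholinesterase and a marker of Aδ-LTMRs, had 0.318, 0.409 and 0.386 CPM in C-LTMRs, against 9.72, 14.8 and 25.5 CPM in Aδ-LTMRs (-5.47 ± 0.79, adjusted p = 9.3e-06). Lactate dehydrogenases split. Ldha had 422, 429.7 and 406 CPM in C-LTMRs, against 147, 139 and 207 CPM in Aδ-LTMRs, with reads that may be shared with pseudogenes. Ldhb had 41.0, 38.4 and 48.4 CPM in C-LTMRs, against 184, 195 and 420.5 CPM in Aδ-LTMRs. Their log2 fold changes were 1.35 ± 0.19 and -2.65 ± 0.30. The list of glycolysis genes had 1 higher and 3 lower of 22 (2 and 3 on RPKM). These counts lay near the shares over all genes tested, 6.54% higher and 12.1% lower. Lipid and sterol synthesis had 4 higher and 0 lower of 18, all with modest changes, such as Srebf2, the sterol regulator, at 1.197 ± 0.22 (adjusted p = 1.8e-04); with Aδ-LTMR library 3 alone 1 was called, and on RPKM 7.

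RNA of non-neuronal cells differed between the sorted pools. Of 11 endothelial markers 10 were lower in C-LTMRs and 0 higher (6 and 0 with Aδ-LTMR library 3 alone), with summed levels of 9.98 to 11.6 CPM in C-LTMRs and 44.4 to 82.9 CPM in Aδ-LTMRs, and 3 of the markers were at 0 counts in C-LTMR library 2 and 1 in C-LTMR library 3. Pecam1 averaged 0.579 ± 0.233 CPM in C-LTMRs and 8.05 ± 1.58 CPM in Aδ-LTMRs. Of 9 fibroblast markers 7 were lower and 2 higher, Dcn (117 ± 13.4 CPM in C-LTMRs and 17.8 ± 2.39 CPM in Aδ-LTMRs) and Pdgfra (20.4 ± 2.66 CPM in C-LTMRs and 3.03 ± 0.663 CPM in Aδ-LTMRs), so the summed level was above that of Aδ-LTMRs, at 134 to 162 CPM in C-LTMRs and 69.8 to 95.2 CPM in Aδ-LTMRs. Of 7 pericyte and smooth muscle markers 5 were lower, among them Acta2 (0.317 ± 0.114 CPM in C-LTMRs and 4.47 ± 2.99 CPM in Aδ-LTMRs), and 3 with Aδ-LTMR library 3 alone (2 of 4 on RPKM), while their summed level was 686 to 1754 CPM in C-LTMRs and 182 to 539 CPM in Aδ-LTMRs. The mean log2 CPM of the pericyte and smooth muscle markers was 0.42 to 0.74 in C-LTMRs and 1.56 to 2.97 in Aδ-LTMRs. No member was called higher, so the larger sum in C-LTMRs did not stand for most members. Satellite glia markers had 10 lower and 0 higher of 16 (5 lower and 1 higher on RPKM), with sums of 1496 to 1693 CPM in C-LTMRs and 2560 to 3369 CPM in Aδ-LTMRs. Immediate early genes, which respond to handling, had 8 lower and 0 higher of 16 (4 and 0 with Aδ-LTMR library 3 alone, and 5 lower of 15 on RPKM), at 455 to 553 CPM in C-LTMRs and 755 to 1084 CPM in Aδ-LTMRs. The mitochondrially encoded mRNAs had 4 lower of 7, and no member was called with Aδ-LTMR library 3 alone or on RPKM: they summed to 6808 to 8786 CPM in C-LTMRs and to 20920, 25900 and 8660 CPM in Aδ-LTMR libraries 1, 2 and 3. The part of these cells and of handling in the lists above was not tested.

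**Figure D4:**
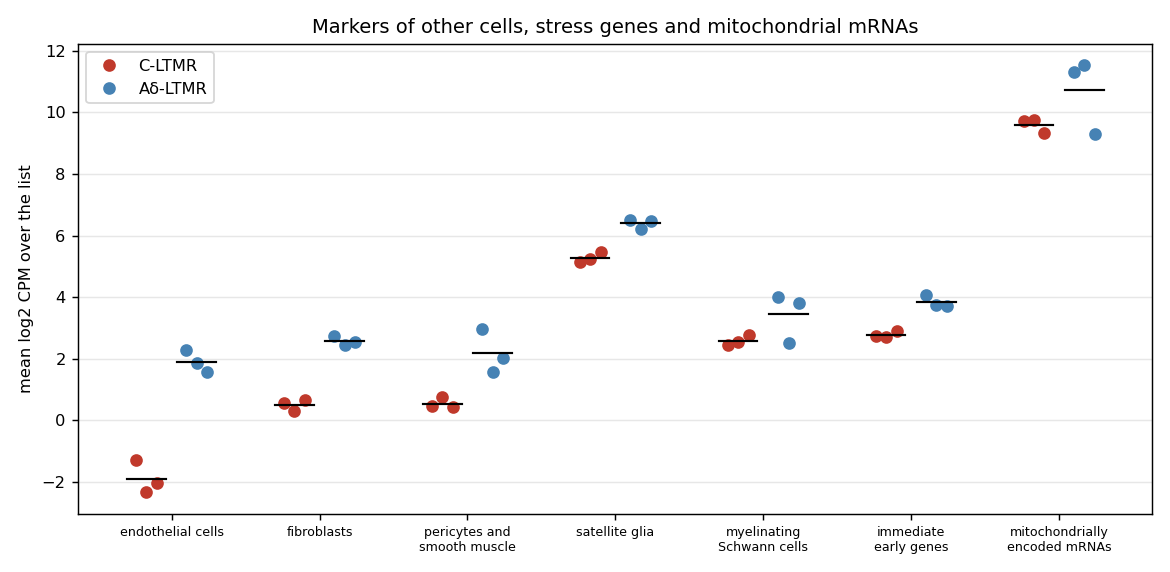
Mean log2 CPM over the markers of other cell types, the immediate early genes and the mitochondrially encoded mRNAs in each library; C-LTMR libraries in red (left), Aδ-LTMR libraries in blue (right), bars at the means. Endothelial markers are further apart than any other list shown, and the mitochondrial mRNAs of Aδ-LTMR library 3 lie beside the C-LTMR libraries.

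The second comparison asked how far the pair follows the contrast between nociceptors and Aβ-LTMRs. These groups differ as pain and touch neurons, in labelling alleles and for some groups in tamoxifen, as well as in myelin. Such differences cannot be told apart here, so shared changes cannot be assigned to myelin. Nociceptors were set against Aβ-LTMRs in the same model, and 2466 genes (14.2%) were called higher and 2601 (14.9%) lower in nociceptors (29.1% in either direction). Of the genes called higher in C-LTMRs 594 were also called higher in nociceptors, which is 52.2% of the C-LTMR genes and 24.1% of the nociceptor genes. Of those called lower in C-LTMRs 1145 were also lower in nociceptors, 54.1% and 44% of the 2 lists. In the opposite direction were 79 (6.94%) of the higher and 87 (4.11%) of the lower genes. Across all genes the log2 fold changes of the 2 comparisons correlated at r = 0.454, and genes are not independent replicates. The peptidergic part of the nociceptors is thinly myelinated in part, so that group is not purely unmyelinated.

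Some genes changed by similar amounts in both contrasts, with no interaction called. Nefh changed by -3.26 between C-LTMRs and Aδ-LTMRs and by -3.62 between nociceptors and Aβ-LTMRs, and Slc17a7 by -5.20 and -5.50. Maf changed by -3.12 and -3.12, and Gabrg1 by -4.81 and -5.54. For other genes the interaction was called: Slc17a8 changed by 5.38 and 0.71, Cacna1i by 6.05 and 0.36, Fam19a4 by 4.67 and 0.22, and Cadps2 by -5.20 and -0.09. For Scn10a it was called in the other direction, with changes of 2.54 and 4.63. The difference between the 2 contrasts was itself tested as an interaction, and 1186 genes (6.81%) were more positive and 1523 (8.75%) more negative for C-LTMRs over Aδ-LTMRs (15.6% together). It was called in the same direction for 311 of the higher genes (27.3%) and 530 of the lower genes (25.1%). The interaction holds the same C-LTMR and Aδ-LTMR libraries as the pair, so genes called in the pair lean to the same direction in it by construction.

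Among genes called in the pair, detected at more than 3 counts in every group of libraries and at 5 CPM or more in C-LTMRs or Aδ-LTMRs, the most positive interactions were those of Nell2, Nkd2, Kcna3, Chrna4, Tgm5 and Sema3e. Nell2, a secreted guidance protein, had 33.2, 32.2 and 34.2 CPM in C-LTMRs, against 2.55, 3.16 and 3.24 CPM in Aδ-LTMRs, a log2 fold change of 3.48 ± 0.48, while nociceptors over Aβ-LTMRs gave -3.69 ± 0.34. The 2 changes had opposite signs. Zfp521 and Gabra3 also changed sign, at -2.22 and -1.13 between nociceptors and Aβ-LTMRs. Sema3e, a secreted semaphorin, had 117, 119.9 and 103 CPM in C-LTMRs, against 29.4, 26.3 and 11.6 CPM in Aδ-LTMRs, a log2 fold change of 2.34 ± 0.32, while the second contrast gave -3.65 ± 0.23. Tgm5, a transglutaminase, averaged 49.8 ± 5.09 CPM in C-LTMRs and 4.77 ± 0.444 CPM in Aδ-LTMRs, and Nkd2, a Wnt pathway inhibitor, averaged 11.9 ± 2.27 CPM in C-LTMRs and 2.59 ± 0.769 CPM in Aδ-LTMRs; the change of Nkd2 was not called with Aδ-LTMR library 3 alone (1.83). Kcna3, KV1.3, had 5.88, 5.73 and 5.98 CPM in C-LTMRs, against 0.0593, 0.149 and 0.291 CPM in Aδ-LTMRs; its change was 4.34 and not called with Aδ-LTMR library 3 alone. The most negative interactions were those of Cyyr1, Slfn5, Flt1, Slco1a4, Cdh5 and Slc39a8, of which Flt1, Slco1a4 and Cdh5, VE-cadherin, are endothelial genes. Flt1 had 0.397, 0.0779 and 0.0798 CPM in C-LTMRs, against 34.6, 20.4 and 9.66 CPM in Aδ-LTMRs, and Cdh5 had 0.291, 0.0974 and 0.0665 CPM in C-LTMRs, against 10.3, 6.13 and 4.07 CPM in Aδ-LTMRs; endothelial markers were lower in C-LTMRs as given above.

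**Figure D5:**
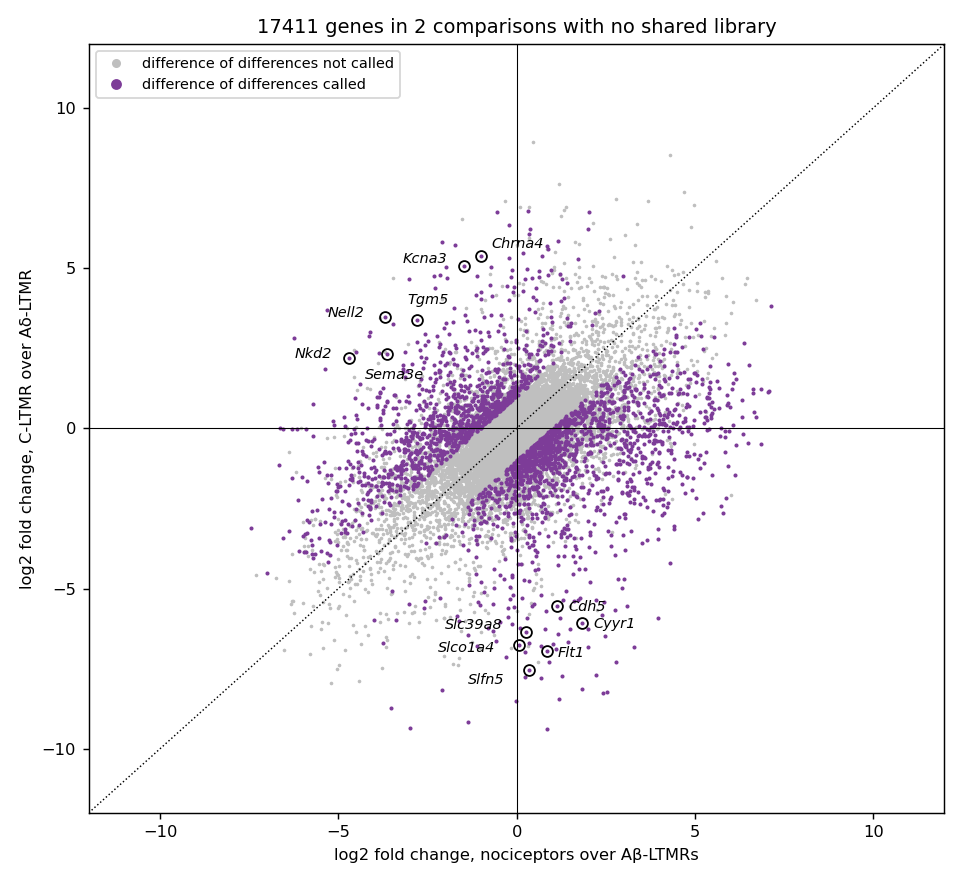
Log2 fold change of each of 17411 genes, nociceptors over Aβ-LTMRs on the x axis and C-LTMR over Aδ-LTMR on the y axis; purple points are genes whose 2 changes differed by the interaction test, grey points the rest, and the dotted line marks equal changes. The 12 circled genes have the most positive or most negative interactions under the rule in the text, with Nell2 and Nkd2 at the upper left and Cyyr1 and Flt1 at the lower right.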

How the data were processed

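The 26 libraries were RNA-seq of sorted, RNA-amplified neurons of adult mice, with reads aligned to mm10. Per the submitters' processing notes, FastQC 0.11.3, the aligner STAR, Cuffdiff, HTSeq 0.6.1 and DESeq2 1.14.1 were used, without stated roles, and the strand setting of the counting is not given in the sources used here. The authors deposited raw counts for 39017 genes, RPKM values, regularized log2 values (not used here), and a quality summary with mapping and exonic rates as fractions, GC as percent, mapped reads as counts and a ratio of 5′ to 3′ coverage. Symbols came from the RPKM table for 38828 genes and from a name table for 180.

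Counts were analysed with edgeR 4.0.16 in R 4.3.3: 17411 genes passed filterByExpr, were scaled by TMM and fitted in 1 quasi-likelihood model over all 8 subtypes (common dispersion 0.107, robust), with contrasts for C-LTMRs minus Aδ-LTMRs, for the mean of the nociceptor groups minus the mean of the Aβ-LTMR groups, and for their difference. Calls needed a Benjamini-Hochberg adjusted p under 0.05 over all genes and a log2 fold change of at least 1. CPM are TMM-scaled, SEs come from the F statistic, and "alone" marks a refit that keeps 1 Aδ-LTMR library and assumes that it varies like the other groups. The RPKM alternative used limma 3.58.1 on log2(RPKM + 0.1), whose pseudocount understates changes of low genes; DESeq2 1.42.0 was another. The scripts were tested on simulated data. Genes named were the drivers, the 8 largest changes each way, up to 3 called genes each way from each list, a fixed set of subtype genes, the 6 most positive and 6 most negative interactions, and genes whose role the text needs. A few of these genes are not reported here. The comparison, lists and named genes were chosen with earlier results of these data known. Of 256 named genes 179 had a promoter in the RefSeq table. Differences between overlapping or antisense genes cannot be resolved without strand.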

Additional observations from a re-analysis of the deposited data

Results flagged for a closer look

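For 12 genes, chosen as the 6 most positive and the 6 most negative interactions under the rule given above, the change between C-LTMRs and Aδ-LTMRs differed from the change between nociceptors and Aβ-LTMRs by the interaction test in edgeR. The log2 interaction was 7.16 for Nell2, 6.90 for Nkd2, 6.54 for Kcna3, 6.40 for Chrna4, 6.19 for Tgm5 and 5.98 for Sema3e. It was -7.92 for Cyyr1, -7.88 for Slfn5, -7.81 for Flt1, -6.82 for Slco1a4, -6.68 for Cdh5 and -6.63 for Slc39a8. Nell2, Nkd2, Chrna4, Tgm5 and Sema3e were called in opposite directions in the 2 contrasts, with log2 fold changes of nociceptors over Aβ-LTMRs of -3.69, -4.71, -1.003, -2.80 and -3.65. With Aδ-LTMR library 3 alone the interaction of Kcna3 was 5.83 and was not called. Endothelial markers were lower in C-LTMRs than in Aδ-LTMRs, at summed levels of 9.98 to 11.6 CPM in C-LTMRs and 44.4 to 82.9 CPM in Aδ-LTMRs, and their part in the negative values was not tested. Groups of 3 libraries are too small for a test of single outlying libraries.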

How the results depend on the processing

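Counts of called genes moved most with no fold threshold and with limma on RPKM, which changes the values, the test and the filter together. With no fold threshold, 2131 genes were called higher in C-LTMRs, and 4588 were called higher and 4404 lower in nociceptors than in Aβ-LTMRs. On log2(RPKM + 0.1), 2119 were called higher in C-LTMRs and 1676 lower in nociceptors, or 2214 and 1713 without the filter on low values. On log2(RPKM + 1), 870 were called lower in C-LTMRs, 1304 higher and 916 lower in nociceptors, and 859 had a more negative interaction. The shares called higher in C-LTMRs were 35.0% with counts, 59.8% on log2(RPKM + 0.1) and 61.5% on log2(RPKM + 1); the cause was not tested. Leaving out 1 library gave 995 to 1278 genes higher and 1656 to 2275 lower in C-LTMRs, 2435 to 2758 higher and 2471 to 2717 lower in nociceptors, and 1017 to 1349 more positive and 1129 to 1744 more negative interactions. Directions reversed for Prph (-0.16) and mt-Nd6 (1.35) with Aδ-LTMR library 3 alone, and for Slc18a2 on log2(RPKM + 0.1) with and without the filter (0.32) and on log2(RPKM + 1) (0.21). Among the 268 results recomputed with Aδ-LTMR library 3 alone, 38 were no longer called and 3 became called. On log2(RPKM + 0.1) 22 of 264 were no longer called, and on log2(RPKM + 1) 34. Of 267 results with DESeq2 0 lost their call and 1 became called, and of 255 with the 6 libraries fitted alone 4 lost it and 1 gained it. Replicate numbers did not pair the libraries: deviations of same-numbered libraries correlated at -0.001, -0.001 and -0.054. With the replicate block, 1187 genes were called higher and 2112 lower in C-LTMRs, and 1 named gene (Hcn2) became called. Depth limits statements on genes under 1 CPM.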
